A study of Mus musculus with 4 samples.

Results

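The troponin genes measured were Tnnt2, Tnni3, Tnni1, Tnnc1, Tnnt1, Tnni2 and Tnnc2, chosen by the RefSeq identifiers that the arrays give for them. They were 7 of the 20885 genes to which the probes could be assigned, and each was read by 1 of the 39428 probes. RNA of 4 cell populations derived from mouse pluripotent stem cells was hybridized to 1-colour arrays, with a single array for each population, so that there were no replicates. Flk1+ MPCs, mesodermal precursor cells, were sorted at day 4.5. PCBs, which are PDGFRα+Flk1- cardioblasts, were obtained at day 5.5 with CsAYTE, a mixture of Cyclosporin A with Trolox, an antioxidant, Y27632, which inhibits ROCK, and EW7197, which inhibits ALK5. The sfPCBs formed spontaneously by day 5.5 in the absence of CsAYTE, with DMSO as the vehicle. M+CMs, cardiomyocytes that carry GFP driven by the αMHC promoter, were taken at day 10.5, and the study describes them as derived from PCBs, although the label of this array does not state the treatment. In the study's protocol sorted Flk1+ MPCs were plated on OP9 cells, a mouse stromal feeder line, or on gelatin, and all populations had been differentiated without leukemia inhibitory factor. Because each population was defined by surface antigens or a reporter and measured in bulk, fewer cells that express a gene and less RNA of it per cell cannot be told apart.

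Troponin is the calcium switch of striated muscle, and it sits with tropomyosin on the actin thin filament. Troponin T anchors the complex to tropomyosin, troponin I inhibits the interaction of actin with myosin, and troponin C binds calcium and relieves that inhibition. Each subunit has isoforms that belong to cardiac, slow skeletal or fast skeletal muscle. Cardiac and slow skeletal muscle share 1 troponin C, encoded by Tnnc1. The embryonic heart also uses isoforms of slow skeletal muscle, and its slow skeletal troponin I is replaced by the cardiac isoform around and after birth.

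Signals are given as the background-subtracted signal of the scanner software, scaled so that the 75th percentile of every array was equal. All 7 probes were called well above background on all 4 arrays, where between 73.3% and 76.2% of the spots passed. The lowest scaled signal so called on an array lay between 15.1 and 15.9, and the dimmest troponin value was 3.29 times this limit. No spot was saturated. The error that the software gives for a spot was between 10% and 11.9% of the troponin signals, which put the error of a log2 ratio between 0.20 and 0.24. This error leaves out the differences between cultures and between RNA preparations, and with 1 array per population no test was possible. Levels of different probes cannot be set against each other, so the troponin genes are compared only by changes of 1 probe between arrays. Sums over marker lists add signals of different probes, are led by the brightest and serve as a description only.

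The troponin genes followed different courses. Tnnt2, Tnni1 and Tnnc1 were already high in PCBs and somewhat higher in M+CMs. Nearly all of the difference in Tnni3 and Tnnt1 lay between PCBs and M+CMs. The fast skeletal genes Tnni2 and Tnnc2 had their highest signal in PCBs and spanned a narrow range, with 9.72-fold and 2.6-fold between the highest and the lowest array. The corresponding span was 2684-fold for Tnnt2, 2019-fold for Tnni3, 796-fold for Tnni1, 426-fold for Tnnc1 and 124-fold for Tnnt1.

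**Figure D1:**
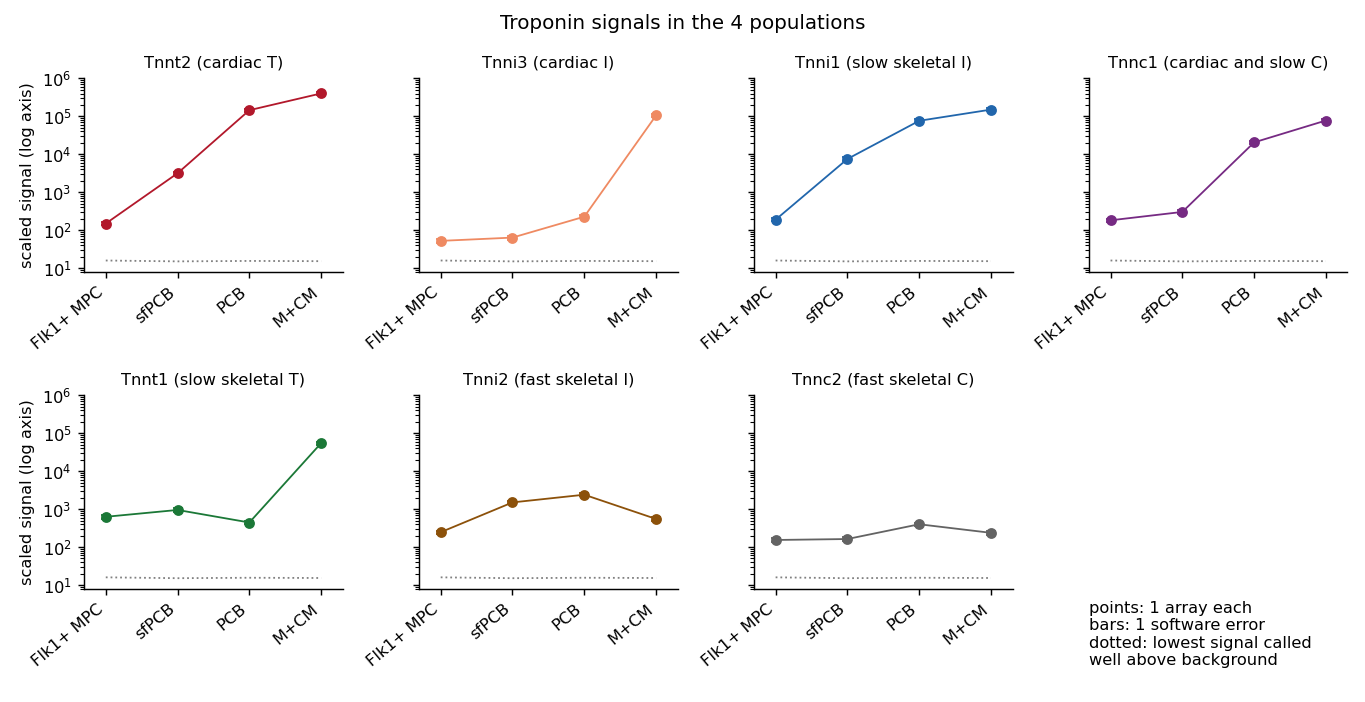
Scaled signal of each troponin gene (log axis) in Flk1+ MPCs, sfPCBs, PCBs and M+CMs, with 1 point per array, bars of 1 software error (mostly smaller than the points) and the lowest signal called well above background as a dotted line. The lines only join the arrays of a gene, since sfPCBs and PCBs are both of day 5.5. Tnnt2, Tnni1 and Tnnc1 were high in PCBs, Tnni3 and Tnnt1 were high in M+CMs only, and Tnni2 and Tnnc2 varied least.

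The cardiac and the slow skeletal gene of troponin T differed in the array at which their signal first stood out. Tnnt2 (NM_011619), the cardiac isoform whose protein is known as cTnT, had a scaled signal of 150.2 for Flk1+ MPCs, 3176 for sfPCBs, 145595 for PCBs and 403180 for M+CMs. These 4 values were all apart by more than 2 errors. The signal in PCBs was 36.1% of that in M+CMs, and the signal in sfPCBs was 0.788% of it. Tnnt1 (NM_011618), the slow skeletal isoform, had a signal of 628 for Flk1+ MPCs, 951 for sfPCBs, 444 for PCBs and 54860 for M+CMs. PCBs thus had the lowest Tnnt1 signal of the 4 arrays, at 0.809% of the M+CM signal. From PCBs to M+CMs the log2 ratio of Tnnt1 exceeded that of Tnnt2 by 5.48 (error 0.29).

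Troponin I showed the same division between an early and a late gene. Tnni1 (NM_021467), the slow skeletal isoform that is also the troponin I of the embryonic heart, had a scaled signal of 189.8 for Flk1+ MPCs, 7549 for sfPCBs, 76569.9 for PCBs and 150984 for M+CMs. The order of the populations was that of Tnnt2, but sfPCBs reached 5.0% of the M+CM signal and PCBs 50.7%. Tnni3 (NM_009406), the isoform of the adult heart, had a signal of 52.5 for Flk1+ MPCs, 64.1 for sfPCBs, 228 for PCBs and 105985 for M+CMs. Flk1+ MPCs and sfPCBs did not differ in Tnni3 beyond 2 errors (log2 ratio 0.29, error 0.24), and PCBs reached 0.215% of the M+CM signal. Between PCBs and M+CMs the change of Tnni3 exceeded that of Tnni1 by 7.88 on the log2 scale (error 0.29), which is a 236-fold shift between these 2 probes. Between Flk1+ MPCs and PCBs the shift ran the other way, with Tnni1 ahead of Tnni3 by a factor of 93.0. Tnni2 (NM_009405), the fast skeletal isoform, had a signal of 247 for Flk1+ MPCs, 1503 for sfPCBs, 2397 for PCBs and 550.1 for M+CMs. Both day 5.5 populations were therefore above M+CMs and Flk1+ MPCs in Tnni2.

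Of the troponin C genes, Tnnc1 followed the PCBs and Tnnc2 varied little. Tnnc1 (NM_009393) had a scaled signal of 183 for Flk1+ MPCs, 304 for sfPCBs, 20652 for PCBs and 77887 for M+CMs. In sfPCBs it stood at 0.390% of the M+CM signal, while PCBs were at 26.5%. Tnnc2 (NM_009394), the fast skeletal troponin C, had a signal of 154 for Flk1+ MPCs, 163 for sfPCBs, 399 for PCBs and 237 for M+CMs. Its values in Flk1+ MPCs and sfPCBs were within 2 errors of each other (log2 ratio 0.08, error 0.21). Over all 7 genes, 19 of the 21 steps between neighbouring populations in the order of signal were larger than 2 errors, and the exceptions were the Flk1+ MPC and sfPCB values of Tnni3 and Tnnc2.

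The comparison of PCBs with Flk1+ MPCs sets cells obtained with CsAYTE at day 5.5 beside the precursors of day 4.5. Time in culture, CsAYTE and the sorted antigens differ together here, so their parts cannot be told apart. Of the 7 troponin genes, 6 were at least 2-fold higher in PCBs, where 11.6% of the 30811 probes compared were, and none was at least 2-fold lower, where 10.5% were. At least 30-fold, the threshold used in the study, 3 genes were higher, against 1.05% of the probes. These were Tnnt2 (969-fold, log2 ratio 9.92, error 0.21), Tnni1 (403-fold) and Tnnc1 (113-fold). For Tnnt2, only 7 of the 30811 probes had a larger ratio. Tnni2 was 9.72-fold, Tnni3 4.34-fold and Tnnc2 2.60-fold higher, of which Tnnc2 was below 2-fold with normexp (log2 ratio 0.96). Tnnt1 was the exception, with a log2 ratio of -0.50 (error 0.20), against a median of -0.19 over all probes.

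Comparing PCBs with sfPCBs sets cells of the same day with and without CsAYTE side by side. At least 2-fold higher in PCBs were 5 of the 7 genes, against 4.95% of 30117 probes, and 1 gene, Tnnt1, was at least 2-fold lower, against 6.41%. At least 30-fold higher were Tnnc1 (68.0-fold, log2 ratio 6.09, error 0.20) and Tnnt2 (45.8-fold, log2 ratio 5.52, error 0.20), 2 genes where 0.209% of the probes passed. Tnni1 was 10.1-fold, Tnni3 3.55-fold and Tnnc2 2.45-fold higher. The signal of Tnni2 was 1.60-fold that of sfPCBs, below the 2-fold threshold. Tnnt1 had 0.467-fold the signal of sfPCBs.

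Against Flk1+ MPCs, sfPCBs showed a partial pattern. Only Tnni1 (39.8-fold), Tnnt2 (21.1-fold) and Tnni2 (6.09-fold) were at least 2-fold higher, 3 of 7 genes against 12% of 30689 probes. Tnni1 alone passed 30-fold, against 0.978% of the probes, and no troponin gene did after normexp correction followed by quantile normalization. Tnnc1 was 1.66-fold, Tnnt1 1.51-fold, Tnni3 1.22-fold and Tnnc2 1.06-fold the Flk1+ MPC signal, and none of these reached 2-fold, although Tnnc1 did so without scaling (log2 ratio 1.07). The cardiomyocyte markers of the same sfPCB array were mixed. Myh7, a slow and cardiac myosin heavy chain, was 4.30-fold and Ryr2, the calcium release channel, 5.98-fold higher than in Flk1+ MPCs. Myh6, the myosin heavy chain whose promoter drives the reporter, was 1.1-fold and the transcription factor Nkx2-5 0.900-fold the Flk1+ MPC signal. Lower in sfPCBs were Actn2, the actinin of the Z-disc, at 0.283-fold, and Myl7, the atrial light chain, with a log2 ratio of -3.37. The 3 comparisons among Flk1+ MPCs, sfPCBs and PCBs share arrays, so an error of 1 array enters several of these values.

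**Figure D2:**
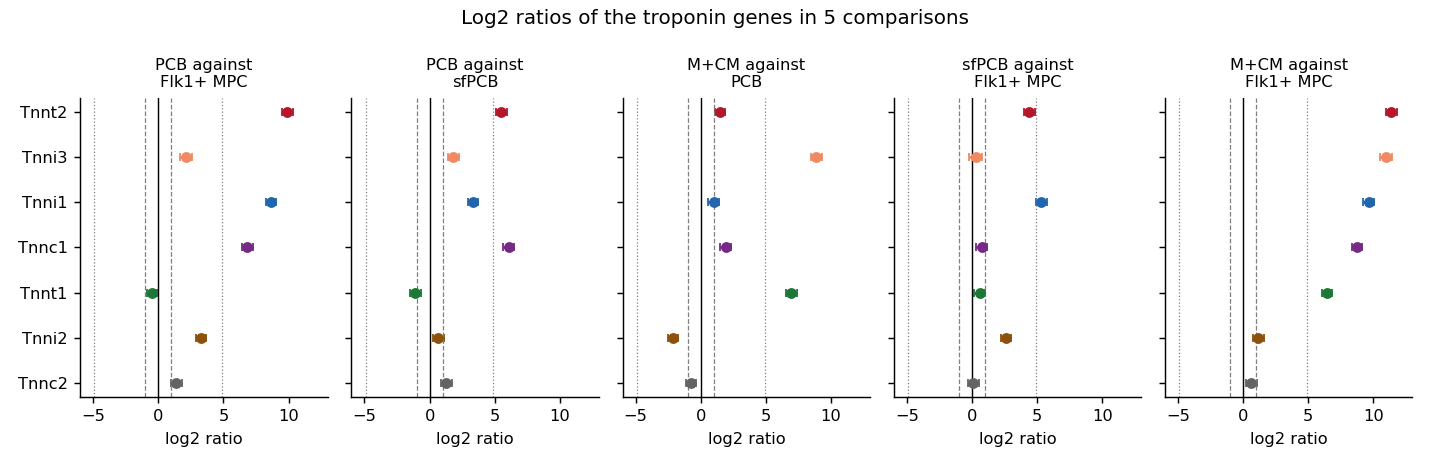
Log2 ratio of each troponin gene in 5 comparisons, with 1 array per population and bars of 2 software errors. Dashed lines mark 2-fold and dotted lines 30-fold. Tnni3 and Tnnt1 passed 30-fold from PCBs to M+CMs, and Tnnt2, Tnni1 and Tnnc1 from Flk1+ MPCs to PCBs.

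The step from PCBs to M+CMs was largest for Tnni3 (466-fold, log2 ratio 8.86, error 0.21) and Tnnt1 (124-fold, log2 ratio 6.95, error 0.20). These 2 troponin genes passed 30-fold, as 0.485% of 31131 probes did, and 3 probes had a larger ratio than Tnni3. At least 2-fold, 4 genes were higher in M+CMs (18.7% of the probes) and 1 was lower (14.7%). Tnnc1 was 3.77-fold and Tnnt2 2.77-fold higher, ratios that 6.63% and 10.9% of the probes exceeded. Tnni1 was 1.97-fold higher, just below 2-fold, and it passed that threshold under 3 of the 9 other processing settings. Tnni2 was 4.36-fold higher in PCBs than in M+CMs (log2 ratio -2.12, error 0.20), and Tnnc2 had a log2 ratio of -0.75 (error 0.21). The fast skeletal genes were thus the members with less signal in M+CMs than in PCBs.

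From Flk1+ MPCs to M+CMs the whole course gave 6 of 7 genes at least 2-fold higher, against 20.7% of 31539 probes, and 5 at least 30-fold higher, against 1.65%. Tnnt2 was 2684-fold higher, Tnni3 2019-fold, Tnni1 796-fold, Tnnc1 426-fold and Tnnt1 87.4-fold. On a log2 scale with Flk1+ MPCs at 0 and M+CMs at 1, PCBs stood at 0.90 for Tnni1, 0.87 for Tnnt2 and 0.78 for Tnnc1, but at 0.19 for Tnni3 and -0.08 for Tnnt1. The sfPCBs stood at 0.55 for Tnni1, 0.39 for Tnnt2, 0.08 for Tnnc1, 0.09 for Tnnt1 and 0.03 for Tnni3. Tnni2 was 2.23-fold and Tnnc2 1.54-fold the Flk1+ MPC signal in M+CMs, and Tnni2 was below 2-fold with quantile normalization (log2 ratio 0.93) and with normexp (0.77).

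**Figure D3:**
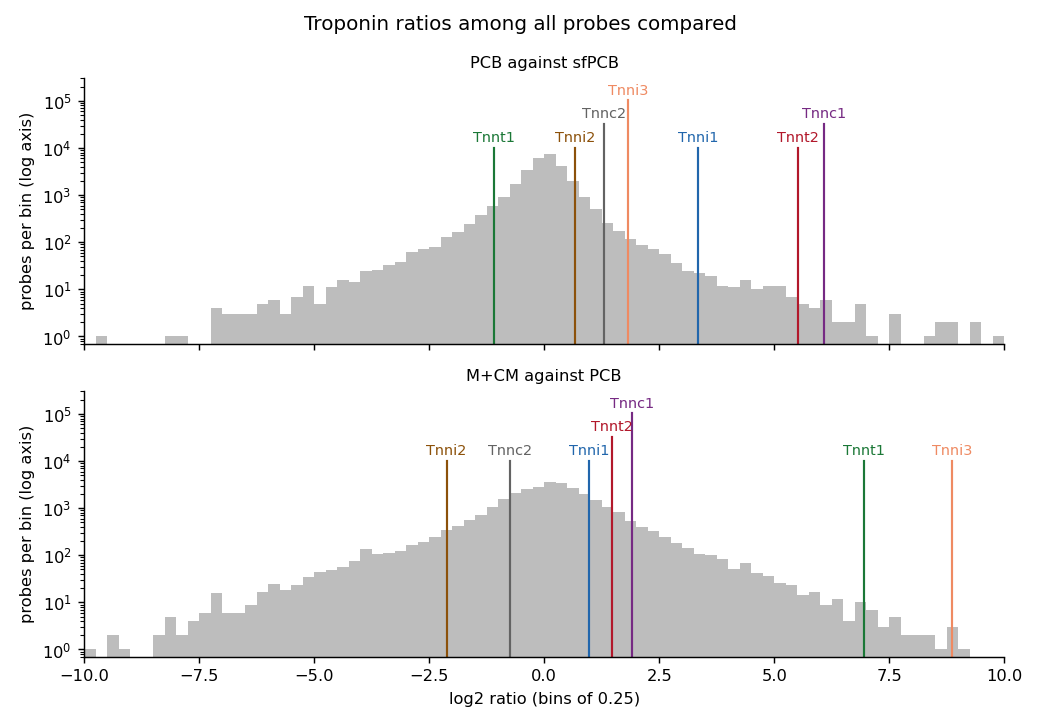
Number of probes (log axis) per bin of the log2 ratio for PCBs against sfPCBs and for M+CMs against PCBs, with the troponin genes as coloured lines whose height has no meaning. Tnnc1 and Tnnt2 lay at the right edge of the first distribution, and Tnnt1 and Tnni3 at that of the second.

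Troponin I and T genes lie near each other in the mouse genome, and the members of such a pair had like ratios in some comparisons and unlike ones in others. In the RefSeq annotation Tnni1 and Tnnt2 are on chromosome 1 with 1 protein-coding gene between them, and Tnnt1 and Tnni3 are on chromosome 7 with 0 between them. The log2 ratios of Tnni1 and Tnnt2 were 8.66 and 9.92 from Flk1+ MPCs to PCBs, and 0.98 and 1.47 from PCBs to M+CMs. For Tnni3 and Tnnt1 the corresponding ratios were 2.12 and -0.50, and then 8.86 and 6.95. Between PCBs and sfPCBs Tnni1 and Tnnt2 were further apart, with 3.34 for Tnni1 and 5.52 for Tnnt2 (difference -2.18, error 0.29). Tnni3 had 1.83 and Tnnt1 a fold of 0.467, in opposite directions, as also from Flk1+ MPCs to PCBs. The difference of Tnnt1 from Tnni3 was -2.93 between PCBs and sfPCBs and -2.62 between PCBs and Flk1+ MPCs, each with an error of 0.30. From Flk1+ MPCs to sfPCBs the log2 ratios were 5.31 for Tnni1 and 4.40 for Tnnt2, and 0.29 for Tnni3 and 0.60 for Tnnt1. The third pair, Tnni2 and Tnnt3, lies on chromosome 7 with 1 protein-coding gene between. Tnnt3 encodes fast skeletal troponin T and is read by 2 probes. Its brighter probe had a scaled signal of 677 for Flk1+ MPCs, 741 for sfPCBs, 375 for PCBs and 55.1 for M+CMs, so it was lowest where cardiac troponins were highest. From Flk1+ MPCs to PCBs the log2 ratio was 3.28 for Tnni2 and -0.85 for Tnnt3, and the genes of this pair differed by 4.13 (error 0.29). From PCBs to M+CMs both were lower, with -2.12 for Tnni2 and -2.77 for Tnnt3 (difference 0.64, error 0.30). The other probe of Tnnt3 gave 446, 511, 242 and 70.0 in the same order of populations.

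**Figure D4:**
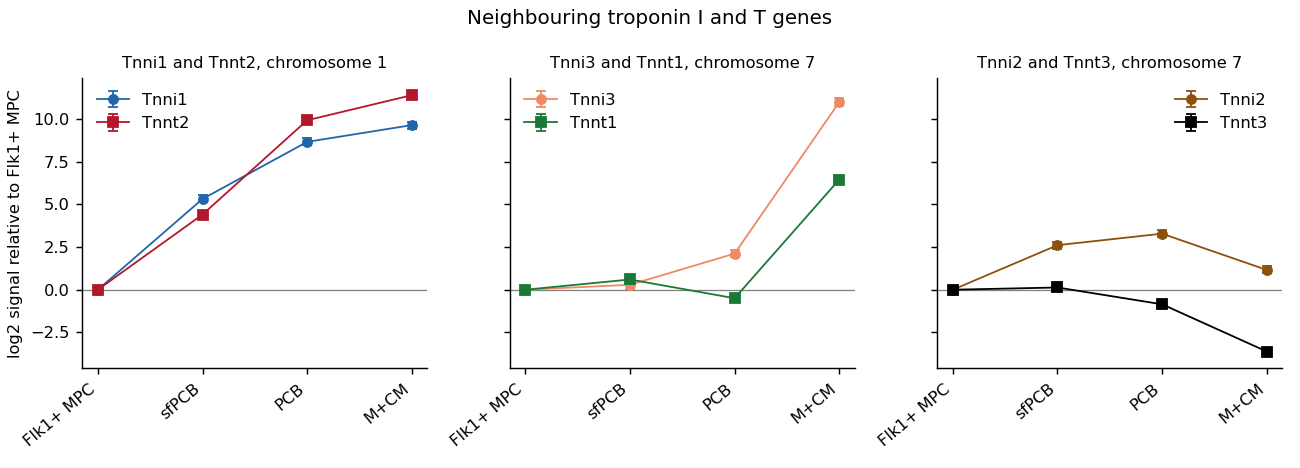
Log2 signal relative to Flk1+ MPCs for neighbouring troponin I (circles) and troponin T (squares) genes, with 1 array per population and bars of 1 software error of the ratio. Tnni1 and Tnnt2 were high from PCBs on, Tnni3 and Tnnt1 in M+CMs, and Tnnt3 was lowest in M+CMs.

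Promoter windows are shown for the 2 genes that passed 30-fold between PCBs and sfPCBs and for the 2 that passed it between M+CMs and PCBs, since these 4 genes had the largest troponin ratios in those 2 comparisons. The windows are those of RefSeq on build GRCm38.p6, from 250 bases before to 50 bases after the annotated start, written in the direction of the gene. Tnnt2 is at chr1:135836084-135836383 (plus strand, the first of its annotated windows), Tnnc1 at chr14:31208062-31208361 (plus strand), Tnni3 at chr7:4522479-4522778 (minus strand) and Tnnt1 at chr7:4515926-4516225 (minus strand). Capitals mark matches, on either strand, to the letters of any of the 7 motifs searched, of which 6 are spelled out after the sequences and the MEF2 site is given by name. Matches of different motifs were allowed to overlap.
Tnnt2: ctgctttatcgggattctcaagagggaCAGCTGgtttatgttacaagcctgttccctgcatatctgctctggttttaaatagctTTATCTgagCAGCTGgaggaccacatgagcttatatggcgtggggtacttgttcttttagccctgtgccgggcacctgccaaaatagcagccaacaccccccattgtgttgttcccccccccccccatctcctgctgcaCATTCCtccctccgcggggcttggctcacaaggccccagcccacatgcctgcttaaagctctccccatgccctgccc
Tnnc1: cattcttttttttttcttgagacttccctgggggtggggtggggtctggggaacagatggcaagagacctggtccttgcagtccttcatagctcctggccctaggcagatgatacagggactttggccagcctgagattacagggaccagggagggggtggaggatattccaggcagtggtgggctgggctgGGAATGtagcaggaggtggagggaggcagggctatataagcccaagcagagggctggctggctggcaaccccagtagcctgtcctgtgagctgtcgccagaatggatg
Tnni3: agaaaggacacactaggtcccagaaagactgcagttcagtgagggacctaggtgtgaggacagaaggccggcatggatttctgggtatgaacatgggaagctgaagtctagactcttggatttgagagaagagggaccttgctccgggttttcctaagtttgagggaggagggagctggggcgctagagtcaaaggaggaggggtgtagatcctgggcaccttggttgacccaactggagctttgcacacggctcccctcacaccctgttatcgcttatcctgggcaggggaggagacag
Tnnt1: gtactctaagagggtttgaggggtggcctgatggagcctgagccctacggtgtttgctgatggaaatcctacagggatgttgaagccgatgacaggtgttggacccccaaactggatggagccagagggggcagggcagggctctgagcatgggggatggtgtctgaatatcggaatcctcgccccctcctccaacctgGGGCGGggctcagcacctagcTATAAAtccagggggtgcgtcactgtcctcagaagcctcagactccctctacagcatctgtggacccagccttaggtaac

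Both genes that passed 30-fold between PCBs and sfPCBs held the core of the MCAT element (CATTCC), which is bound by TEAD factors, at -27 on the plus strand in Tnnt2 and at -58 on the minus strand in Tnnc1. It was found in 14.7% of all 32851 promoter windows, but not in the second window of Tnnt2 nor in either window of Tnni1, which was also high in PCBs. The Tnnt2 window also held a site for GATA factors, searched as AGATAA, at -166, and such letters were present in 11.2% of windows. Its E-boxes, searched as CAGCTG, were at -223 and -157, and 16.3% of windows had at least 1. The Tnnt1 window held a TATA box, searched as TATAAA, at -30, which 13.6% of windows shared. It also held a box for the factor SP1, searched as GGGCGG, at -51, which 35.7% of windows shared. None of the searched letters were found in the Tnni3 window. Windows were at hand for 6 of the 7 members, and Tnni2 had none in the table used. Among the other windows, those of Tnni1 overlap and share 1 E-box, and the second also held a site for the factor NKX2-5, searched as AAGTG and present in 46.4% of windows, and Tnnc2 held an SP1 box. The MEF2 site was searched as exact strings only, so variants that differ by a base were not counted. It was found in 0.368% of all windows and in no troponin window. A match of letters is a description and not a measured binding site.

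The other genes of the thin filament were described from a list of 20, of which all were on the array. This list holds Tnnt3, tropomyosins, actins, tropomodulins, leiomodins, nebulin relatives and associated proteins. From Flk1+ MPCs to PCBs, 6 of 18 measured genes were at least 2-fold higher and 1 lower, against 11.6% and 10.5% of all probes. The median log2 ratio was 0.56 against -0.19 over all probes. Actc1, the cardiac actin on which troponin sits, was 42.5-fold higher and Tpm1, the tropomyosin of the heart, 4.65-fold higher by its brightest probe. From PCBs to M+CMs 10 of 20 were at least 2-fold higher and 5 lower, against 18.7% and 14.7% of all probes. The median was 0.71 against 0.14 over all probes. Tnni3k, a cardiac kinase that interacts with troponin I, was 45.0-fold higher, and Myoz2, a Z-disc protein that was not above background in PCBs, was at least 105-fold higher. The 5 lower genes were Tnnt3, Tpm3, Tpm4, Tmod2 and Tmod3, with signals 0.147-fold, 0.160-fold, 0.117-fold, 0.236-fold and 0.247-fold those of PCBs. Tpm3 and Tpm4 are tropomyosins of non-muscle cells as well as of muscle. The probes of Tpm1, 5 in number, disagreed. From Flk1+ MPCs to PCBs those for the transcript NM_001164248, which include the brightest, went from 50428 to 234244 and from 38981 to 161511. The others changed little, from 8236 to 9243, from 11266 to 12068 and from 2262 to 2330. From PCBs to M+CMs the brightest probe of Tpm1 went from 234244 to 491782, and a probe for another transcript, NM_001164251, from 12068 to 807. The probes of Tpm3 disagreed as well. Only its brightest probe, the one counted here, was lower in M+CMs, and its others went from 458 to 754 and from 23.1 to 31.4.

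Between PCBs and sfPCBs 6 of 18 thin filament genes were at least 2-fold higher in PCBs and 1 was lower, against 4.95% and 6.41% of all probes. The median log2 ratio was 0.35 against 0.03 over all probes. Actc1 was 43.0-fold higher in PCBs, close to the 45.8-fold of Tnnt2. In sfPCBs the Actc1 signal was 0.989-fold that of Flk1+ MPCs, whereas Acta1, the skeletal actin, was 10.1-fold higher and Tmod1, which caps the thin filament, 12.9-fold higher. In this comparison of sfPCBs with Flk1+ MPCs, 4 of 17 genes were at least 2-fold higher and 0 were lower, against 12% and 10.5% of all probes, and the median log2 ratio was 0.01 against -0.22. From Flk1+ MPCs to M+CMs 9 of 20 were at least 2-fold higher and 5 were lower, against 20.7% of all probes in either direction, and the median was 0.56 against -0.01.

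Markers of skeletal muscle bear on the slow and fast skeletal isoforms. Of 11 such markers, 5 were well above background in Flk1+ MPCs and 4 in each of the other populations. The myogenic regulators Myog and Myf5 were on no array above background, and Myod1 was so only in Flk1+ MPCs with a scaled signal of 29.3. Myf6 lay between 18.3 and 25.5 and was above background on every array except that of Flk1+ MPCs. The adult myosin heavy chains Myh1, Myh2 and Myh4 were on no array above background. Actn3 was above background on every array, with 390 for Flk1+ MPCs, 58.0 for sfPCBs, 112 for PCBs and 310 for M+CMs. Ckm had its highest signal, 79.2, on the M+CM array, against 22.5 for Flk1+ MPCs. It was not above background in sfPCBs or PCBs. Myh3 ran the other way, with 35.4 for Flk1+ MPCs, 29.6 for sfPCBs and 23.1 for PCBs, and was not above background in M+CMs. The summed signal of the list was 585 for Flk1+ MPCs, 203 for sfPCBs, 29843 for PCBs and 278766 for M+CMs. Most of the Flk1+ MPC sum came from Actn3. Nearly all of the last 2 sums came from 1 probe of Myh8, the perinatal myosin heavy chain, with 29628.5 and 278295, while its other probe gave 160.4 and 2722. By the brightest probe of each, all 6 cardiomyocyte markers were well above background on all arrays. Their summed signal was 7334 for Flk1+ MPCs, 2146 for sfPCBs, 450701 for PCBs and 1182610 for M+CMs. The other probe of Myh6 was not above background in Flk1+ MPCs and sfPCBs.

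Of the markers of feeder cells or fibroblasts, 5 of 6 were highest in sfPCBs, the population in which Tnni1 was 39.8-fold, Tnnt2 21.1-fold and Tnnc1 1.66-fold the Flk1+ MPC signal. The 6 feeder or fibroblast markers summed to 2226 for Flk1+ MPCs, 99538 for sfPCBs, 31819 for PCBs and 3816 for M+CMs, with 3, 6, 5 and 6 of them well above background. Col1a1, a collagen, made up most of the sfPCB sum with 58341, and the exception was Thy1, which was highest in Flk1+ MPCs with 1065 against 102 in sfPCBs. Postn, a matrix protein of fibroblasts, had a signal of 12884 in sfPCBs and was not above background in PCBs. Cdh5, the endothelial cadherin, had 987 in sfPCBs and was not above background in PCBs or M+CMs. The 4 endothelial markers together summed to 11546 for Flk1+ MPCs, 9522 for sfPCBs, 7500.4 for PCBs and 7904 for M+CMs, most of it from 1 probe of Kdr. The probes of Kdr disagreed, so these sums depend on the probe taken. From sfPCBs to PCBs the summed probe went from 6661 to 7272, within 2 errors, and the other from 4559 to 768. The other 3 endothelial markers were higher in sfPCBs than in Flk1+ MPCs, Pecam1 2.01-fold, Cdh5 27.3-fold and Tek 34.5-fold. Smooth muscle markers, of which there were 4, summed to 27549 for Flk1+ MPCs, 72296 for sfPCBs, 67074.5 for PCBs and 110444 for M+CMs. Such sums are led by the brightest probes, and these markers differed in direction. Cnn1 was 2501 in sfPCBs and 27099 in PCBs, and Myh11 was above background in PCBs (45.8) but not in sfPCBs. Tagln was 58693 in sfPCBs and 32214 in PCBs, and Smtn was 11092 and 7716. Blood markers, also 4, summed to 268 for Flk1+ MPCs, 3396 for sfPCBs, 3072 for PCBs and 165 for M+CMs. Hbb-bh1, an embryonic globin, carried most of the blood sum with 2781 in sfPCBs and 2525 in PCBs, within 2 errors of each other. Hba-x was higher in PCBs (465) than in sfPCBs (308). The other blood markers were lower in PCBs, with Gata1 at 53.5 against 206 in sfPCBs and Itga2b at 27.7 against 102. The part of the cells that carry any of these markers in the troponin signals was not tested.

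Checks of the labels gave a mixed result for Flk1. Kdr, the gene of Flk1, was 54864 for Flk1+ MPCs, 4559 for sfPCBs, 768 for PCBs and 2126 for M+CMs by 1 probe, and 11263, 6661, 7272 and 7499 by another. Pdgfra was 7237 for Flk1+ MPCs, 3647 for sfPCBs, 9136 for PCBs and 918 for M+CMs. The mesodermal genes Mesp1 and T, the gene of brachyury, were 42204 and 6554 in Flk1+ MPCs and 179 and 82.0 in sfPCBs, and they were not above background in PCBs and M+CMs. Of the pluripotency markers, Pou5f1 was 897 in Flk1+ MPCs, 71.6 in sfPCBs, not above background in PCBs and 18.0 in M+CMs, and Sox2 was 167, 877, 217 and not above background in that order. The probes of Nanog disagreed, with 745 and 193.9 in Flk1+ MPCs and 20.2 and 906 in M+CMs. Myh6, the gene whose promoter marks M+CMs, was 478627 in M+CMs and 82857 in PCBs by its brighter probe. Its other probe gave 26555 in M+CMs and 457 in PCBs, a larger ratio.

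The genes most like each troponin gene over the 4 arrays were found by the distance between log2 signals centred on their mean, among 21231 probes. Nearest to Tnnt2 were both probes of Sh3bgr, at distances of 1.64 and 1.75, and a probe of titin, Ttn, at 1.70. Sh3bgr had a scaled signal of 254 for Flk1+ MPCs, 1518 for sfPCBs, 55249 for PCBs and 267153 for M+CMs by its closer probe. Nearest to Tnni1 were Rcsd1 at 0.27, Unc45b, a myosin chaperone, at 0.99 and Popdc2 at 1.19. For Tnnc1 they were 2 probes of the transcription factor Casz1, both at 0.62, and another probe of Ttn at 0.71. Tnni3 was closest to Cav3, the caveolin of muscle, at 0.60, to Tecrl at 0.89 and to Pln, phospholamban, at 1.27. Tnnt1 had Lsmem1 at 0.30, Slc24a4 at 0.55 and Lmntd1 at 0.60. The neighbours of Tnni2 were Rem1 at 0.24, Plpp3 at 0.25 and Zfp503 at 0.33, and those of Tnnc2 were Klra16, Gm12250 and Trim43c, all within 0.14. With 4 arrays such a likeness is a description only, and values below the limit of an array enter it at that limit.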

How the data were processed

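Total RNA was labelled with Cy3 and hybridized to Agilent arrays, 1 per population on 1 slide. The authors deposited the spot intensity as written by Feature Extraction 11.5.1.1, per the file headers, which subtracts background and detrends each array, with nothing normalized between arrays. The series table deposited beside it holds log2 values without scaling (within 0.01 of the log2 processed signal for at least 99.66% of probes on each array), with medians of 6.88 for Flk1+ MPCs, 7.40 for sfPCBs, 7.19 for PCBs and 7.16 for M+CMs. Control spots and spots called outliers or flagged by hand (between 87 and 144 per array) were left out. The 75th percentile was between 1970 and 2536, and each array was multiplied by between 0.867 and 1.12. Spots of a repeated probe were averaged as log2 signals, and a probe was detected when at least 0.5 of its spots were well above background. For a gene with several probes the one with the highest mean log2 signal was taken. A value not above background that lay below the array's limit was set to that limit, which turns a ratio into a bound. Values not above background that lay over the limit were kept. Comparisons covered probes detected on at least 1 of the arrays compared. Identifiers were matched to symbols through RefSeq (27507 of 39428 probes). Probe sequences were not used, and hybridization of a probe to a related isoform was not tested. The members and lists were chosen with earlier results of these data known. All 7 members were named, and for each the 3 nearest probes. Python 3.11.15 (numpy 2.4.6, pandas 2.3.3, matplotlib 3.10.9) and R 4.3.3 with limma 3.58.1 were used. Counting steps were tested on simulated data.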

Additional observations from a re-analysis of the deposited data

How the results depend on the processing

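The counts of troponin genes past 2-fold and 30-fold were recomputed under 9 other settings. Of these, 3 could not alter them, and another, the series table, holds nearly the same signals and says little about stability. Under the remaining settings all counts but 1 stayed within 1.5 times the reported count. With so few genes this margin is wide. It covers a change from 5 to 6, as for M+CMs against PCBs at 2-fold with quantile normalization. The count outside the margin was that of sfPCBs against Flk1+ MPCs at 30-fold, where normexp (offset 50, then quantile normalization) left 0 genes in place of 1 (log2 ratio of Tnni1 4.61 in place of 5.31). Of the 35 log2 ratios, 22 moved by more than their error with normexp, 17 with an offset of 50 on the scaled signals, 14 without scaling and 3 with quantile normalization. With normexp 21 of the 22 and with the offset all 17 became smaller. None that had reached 2-fold changed sign. Signs changed only for sfPCBs against Flk1+ MPCs, for Tnnc2 (-0.07 with quantile normalization, -0.05 with normexp) and Tnni3 (-0.10 with normexp). Without scaling, the median of all probes moved from -0.19 to -0.01 for PCBs against Flk1+ MPCs, from -0.22 to 0.12 for sfPCBs against Flk1+ MPCs and from 0.14 to -0.07 for M+CMs against PCBs. Leaving out saturated spots, setting no limit and taking the mean over all probes could not change a troponin value and say nothing about stability, since no spot was saturated and each gene had 1 probe, above background on every array. No paired analysis was possible because there was 1 array per population, so no replicate could be left out either.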
